A study of Mus musculus with 8 samples.

Results

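Integrins are cell surface receptors, each made of an alpha and a beta chain, that hold cells to the matrix around them. In the basal layer of skin epithelium and in the hair follicle bulge they bind laminins, cross-shaped proteins of 3 chains that lie in the basement membrane, and collagens, triple-helical proteins that form its networks and the fibres of the dermis. The bulge is known for high integrin α6 and for the transmembrane collagen XVII, both of them parts of the hemidesmosome, the junction that anchors keratins to the basement membrane. The genes described here are the mouse integrin chains (names starting with Itga or Itgb, without the binding partners named Itgb1bp and Itgb3bp), laminin chains (Lama, Lamb and Lamc) and collagen chains (Col with a type and a chain number). They were chosen by gene symbol alone and number 82 of 28793 symbols in the tables. Of the 82, 44 reached 1 FPKM (the authors' fragment level per transcript length and per mapped library) in at least 1 library and 38 stayed under it, among them 3 listed at 0 in all 4 libraries. By family, 14 of 28 integrin, 8 of 11 laminin and 22 of 43 collagen genes reached it, and 35 members did so in all 4 libraries. Around this minimum lie Col8a1, which reached 1.20 FPKM, and Itga7, which reached 0.949.

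The 4 libraries are from hair follicle stem cells sorted by flow cytometry from mouse back skin, 1 library a group. The first pair came from female C57BL6/129Sv mice of day 99 with K15CrePGR, a Cre recombinase fused to a progesterone receptor and driven by the keratin 15 promoter, and with the Rosa-YFPfl/stop/fl reporter. The Ctnnb1 cKO library carried Ctnnb1fl/fl, and the Ctnnb1 Het library Ctnnb1+/fl, so Cre and 1 floxed copy of the β-catenin gene were common to both. The second pair came from male C57BL6 mice of day 24 that carried Axin2LacZ/+, a reporter placed in a Wnt target gene. Bulge cells of follicles passing from rest (telogen) to growth (anagen) were parted by reporter activity into a LacZ-positive and a LacZ-negative library. For the first pair one label names telogen and another the start of anagen. The labels name integrin α6 and CD34 as sorting markers for the study's chromatin samples, which were not analysed here. For the RNA libraries the sources used here give no surface markers, so a level of Itga6 may partly be fixed by the sort.

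Depth is unknown, since FPKM hold no counts of reads, and with 1 library a group no difference has a replicate check or a test. Between 12582 and 12939 genes reached 1 FPKM in a library. Ctnnb1 stood at 370 FPKM in the Ctnnb1 cKO library and 251 in the Ctnnb1 Het library, which runs opposite to a loss. A gene-level value does not resolve the deleted part, so it does not check the genotype labels, and the libraries are called by them. Axin2, a target gene of β-catenin signalling, stood at 2.12 FPKM in the Ctnnb1 cKO library and 16.3 in the Ctnnb1 Het library. Of 10 bulge and basal keratinocyte markers, all were at 1 FPKM or more in every library except Krt15, which is listed at 0 in the LacZ-negative library and at 5951 in the LacZ-positive one. Fibroblast markers other than collagens were low: of 10, 2 reached 1 FPKM in both Ctnnb1 libraries, 3 in the LacZ-positive and 2 in the LacZ-negative library. Their summed level was 3.87 FPKM in Ctnnb1 cKO and 7.09 in Ctnnb1 Het cells, and 13.6 in LacZ-positive, against 5.39 in LacZ-negative cells. Pdgfra, Pdgfrb, Lum, Dpt and Twist2 among them stayed at or under 0.204 FPKM everywhere. Endothelial and muscle or pericyte markers reached 1 FPKM in no library, and of 8 leukocyte markers 3 reached it in every library: Cd74 (1.30 to 3.26 FPKM), Cd68 (1.02 to 5.20) and H2-Aa (1.05 to 3.11). Ptprc, the pan-leukocyte marker, was at most 0.0696. Melanocyte markers summed to 1.80 FPKM in Ctnnb1 cKO and 2.96 in Ctnnb1 Het cells, and to 17.5 in LacZ-positive, against 14.2 in LacZ-negative cells. In such sorted bulk samples, fewer cells of a type and less RNA per cell cannot be told apart.

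Because the series is about the TCF and LEF factors through which β-catenin acts, the promoters of the members that differed by 2-fold or more in either pair were searched for their core motif, spelled CTTTGNN with A or T at each N, on both strands. The windows are those of RefSeq on GRCm38.p6, from 250 bases before to 50 after a gene's start; 33 of the 44 members at 1 FPKM or more have one. Among the 7 members past the 2-fold line, Col1a1 has none and the other genes have 8. Only 1 of these 8 windows, an upstream one of Col6a2, held a match. Of all 32851 windows of this length 16.9% held one, and of the 38 windows of the members at 1 FPKM or more 10.5% did. A match is a run of letters and not a binding site, and its absence speaks only of these bases. Shown are Col6a1 and Col6a2, whose levels differed in the same direction by similar amounts in each pair, and Itgb6, the member with the largest difference between the Ctnnb1 libraries. Capitals mark the match, which begins 197 bases before the upstream start of Col6a2. Col6a2 and Itgb6 each have a further window, not printed, that held no match.
Col6a1 (chr10:76725995-76726294, minus strand): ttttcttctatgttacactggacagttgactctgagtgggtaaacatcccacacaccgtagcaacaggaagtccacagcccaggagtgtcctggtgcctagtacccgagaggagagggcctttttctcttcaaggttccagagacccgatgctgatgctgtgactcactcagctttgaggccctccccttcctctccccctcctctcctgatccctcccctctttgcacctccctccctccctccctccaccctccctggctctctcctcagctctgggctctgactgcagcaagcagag
Col6a2 (chr10:76623581-76623880, minus strand): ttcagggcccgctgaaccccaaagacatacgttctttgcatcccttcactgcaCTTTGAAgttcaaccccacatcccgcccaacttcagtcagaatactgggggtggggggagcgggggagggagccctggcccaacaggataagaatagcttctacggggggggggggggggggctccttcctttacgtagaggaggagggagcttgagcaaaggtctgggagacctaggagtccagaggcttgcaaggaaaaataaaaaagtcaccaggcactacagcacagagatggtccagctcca
Itgb6 (chr2:60722554-60722853, minus strand): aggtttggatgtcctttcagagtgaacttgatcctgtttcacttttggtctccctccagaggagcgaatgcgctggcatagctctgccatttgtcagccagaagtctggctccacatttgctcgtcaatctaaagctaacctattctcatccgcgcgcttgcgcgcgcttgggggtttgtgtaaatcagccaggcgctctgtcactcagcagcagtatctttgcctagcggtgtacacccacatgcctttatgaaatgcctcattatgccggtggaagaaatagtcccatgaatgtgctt
Within these printed windows the guanine and cytosine content was 57.3% for Col6a1, 56.7% for Col6a2 and 50.3% for Itgb6, with 3, 6 and 12 CpG pairs. The further windows of Col6a2 and Itgb6 had 64.3% and 38.3%, with 16 and 3 CpG pairs. The windows of Lama5 (72.7%, 24 CpG pairs), Col8a2 (71.7%, 32) and Col16a1 (74.3%, 24) were richer in both.

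The 4 libraries shared a common profile in which chains of the hemidesmosome and of epithelial basement membrane were among the highest. The collagen VI chain Col6a1 stood above Itgb4 in Ctnnb1 cKO (142 against 132 FPKM) and LacZ-negative cells (149 against 136). It stood below Itgb4 in the other libraries. Col17a1, the gene of collagen XVII, was the highest member in every library, with 1463 FPKM in Ctnnb1 cKO, 1278 in Ctnnb1 Het, 723 in LacZ-positive, against 1028 in LacZ-negative cells. It alone made up 68.5%, 71.3%, 60.5% and 58.8% of the summed FPKM of all collagen genes in these libraries, in the same order. Among integrins Itga6 led in every library, and among laminins Lamb3. The tables were made separately and may differ in scaling, and the pairs differ in sex, age, strain and genotype, so levels across tables are given side by side only. The plot of levels by gene shows 31 members that reached 10 FPKM in any library.

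**Figure D1:**
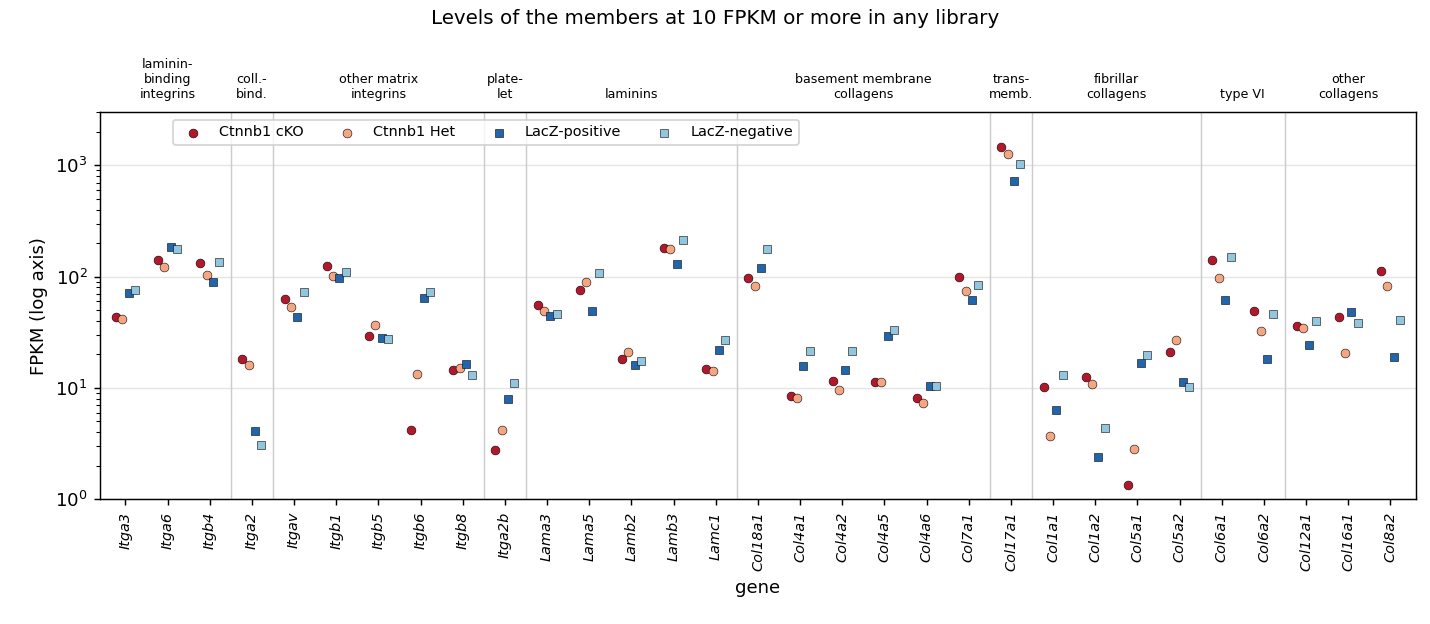
Levels in FPKM (log axis) of 31 members at 10 FPKM or more in any library, grouped by role, with 1 point for each of the 4 libraries. Col17a1 lies above all other members in every library, and Itgb6 shows the widest spread among the integrin chains, between 4.20 FPKM in Ctnnb1 cKO and 73.1 in LacZ-negative cells.

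Among the integrin chains that bind laminin, Itga6 (mm9 chromosome 2, 71583672 to 71696473), whose protein pairs with β4 in hemidesmosomes and with β1 elsewhere, stood at 142 FPKM in Ctnnb1 cKO and 123 in Ctnnb1 Het cells. In the second pair it had 185 FPKM in LacZ-positive, against 178 in LacZ-negative cells. Its position in the order of integrins was thus the same in all 4 libraries, and its log2 differences were small, at 0.21 and 0.054. Itgb4, the partner chain with the long cytoplasmic tail that contacts plectin, had 132 FPKM in Ctnnb1 cKO and 104 in Ctnnb1 Het cells, and in the second pair 90.2 in LacZ-positive, against 136 in LacZ-negative cells. The FPKM of Itga6 was 2.05 times that of Itgb4 in LacZ-positive, against 1.31 times in LacZ-negative cells, and 1.08 and 1.18 times in Ctnnb1 cKO and Ctnnb1 Het cells. The widest imbalance of these partners was therefore in the LacZ-positive library. Itga3, whose protein binds laminin as a partner of β1, had 43.2 FPKM in Ctnnb1 cKO and 42.0 in Ctnnb1 Het cells, and 71.0 in LacZ-positive, against 76.1 in LacZ-negative cells. Itga7, known from muscle, stayed under 1 FPKM.

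Of the collagen-binding chains only Itga2 was above 2 FPKM, with 18.3 FPKM in Ctnnb1 cKO and 16.0 in Ctnnb1 Het cells and 4.14 in LacZ-positive, against 3.07 in LacZ-negative cells. Each pair agreed within itself to a log2 difference of 0.34 or less, while the tables lay apart. Itga1 and Itga10 reached at most 1.93 and 1.70 FPKM, and Itga11 at most 0.146. The remaining matrix-binding chains, many of which recognise an RGD motif in fibronectin, vitronectin or latent TGF-β, were led by Itgb1, the partner of most alpha chains, with 124 FPKM in Ctnnb1 cKO and 102 in Ctnnb1 Het cells, and 97.0 in LacZ-positive, against 111 in LacZ-negative cells. Itgav, the alpha chain shared by β5, β6 and β8, had 63.3 FPKM in Ctnnb1 cKO and 53.1 in Ctnnb1 Het cells. In the other pair Itgav had 43.3 in LacZ-positive, against 73.5 in LacZ-negative cells, a log2 difference of -0.75, the most negative among integrin chains there. Its partners Itgb5 and Itgb8 lay in a narrow band: Itgb5 between 27.4 and 36.5 FPKM and Itgb8 between 13.1 and 16.5 over all 4 libraries. Itgb3, the remaining classical partner of Itgav, was at most 0.0628 FPKM. Itga5, the fibronectin receptor chain, had 5.89 FPKM in Ctnnb1 cKO and 4.45 in Ctnnb1 Het cells, and 3.79 in LacZ-positive, against 6.99 in LacZ-negative cells. Itga4 reached 1 FPKM in the Ctnnb1 pair alone, with 1.12 in Ctnnb1 cKO and 1.65 in Ctnnb1 Het cells, and Itga8 and Itga9 in neither pair.

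Itga2b, whose protein is known as the platelet receptor for fibrinogen together with β3, was the only member among 9 leukocyte and platelet chains to reach 1 FPKM. It had 2.78 FPKM in Ctnnb1 cKO and 4.16 in Ctnnb1 Het cells, and 8.03 in LacZ-positive, against 11.2 in LacZ-negative cells. Of 4 platelet markers, Ppbp is listed at 0 in all 4 libraries, Gp9 was at most 0.0338 FPKM and Pf4 at most 0.112. Gp1bb had 0.332 FPKM in Ctnnb1 cKO and 0.481 in Ctnnb1 Het cells, and 1.16 in LacZ-positive, against 2.44 in LacZ-negative cells. Within each pair Gp1bb was lower in the same library as Itga2b. The part of platelets in these levels was not tested. The interval of Itga2b in the table is shared with a clone, AL596258.1, so its reads may be mixed. That of Gp1bb is also shared with another symbol. The leukocyte chains Itgal, Itgam, Itgax, Itgad, Itgae, Itgb2 and Itgb7 and the related Itgb2l stayed at or under 0.305 FPKM, and Itgbl1, an integrin-like secreted protein that the naming rule admits, is listed at 0 throughout.

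Lamb3 was the highest laminin chain in all 4 libraries. Lamb3 and Lama3 encode a beta and an alpha chain of the anchoring laminin of epithelia, and their levels were unequal. Lamb3 had 180 FPKM in Ctnnb1 cKO and 176 in Ctnnb1 Het cells, and 129 in LacZ-positive, against 213 in LacZ-negative cells. Lama3 had 55.3, 48.9, 44.4 and 45.9 FPKM in the same libraries. Lamb3 was thus 2.91 to 4.64 times Lama3. Lama5, the alpha chain of the main laminin below adult epidermis and bulge, was the second laminin in every library. The beta and gamma chains it is known to assemble with were lower, Lamb1 between 3.70 and 5.34 FPKM, Lamb2 between 16.1 and 20.9 and Lamc1 between 14.3 and 26.9. Lama4 stayed at or under 1.89 FPKM, and Lama1, Lama2 and Lamc3 at or under 0.528.

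Collagens other than Col17a1 fell into an epithelial basement membrane group and a set of chains better known from connective tissue. Col7a1, which forms the anchoring fibrils under the basement membrane, had 100.2 FPKM in Ctnnb1 cKO and 75.0 in Ctnnb1 Het cells, and 61.5 in LacZ-positive, against 83.8 in LacZ-negative cells. Col18a1, a basement membrane collagen that also yields endostatin, had 97.0, 82.8, 119 and 178 FPKM in the same libraries. The network collagens of type IV were lower, and the pairs differed in them: Col4a5 stood at 11.2 and 11.3 FPKM in the Ctnnb1 libraries and at 29.3 and 32.9 in LacZ-positive and LacZ-negative cells. Col4a1 and Col4a2 lie in 1 interval of the tables and ranged from 8.17 to 21.5 and from 9.68 to 21.4 FPKM. Col4a6 ranged from 7.31 to 10.5, and Col4a3 and Col4a4 were at most 3.59 and 2.58.

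Several multi-chain collagens were represented by only part of their chains. Collagen VI, a beaded filament whose classical molecule needs an α1, an α2 and an α3 chain, had Col6a1 between 62.0 and 149 FPKM and Col6a2 between 18.1 and 49.3. Col6a3 was at most 0.672, and Col6a4, Col6a5 and Col6a6, which can take its place, were at most 0.0214. Col6a1 was 2.87, 3.02, 3.43 and 3.22 times Col6a2 in Ctnnb1 cKO, Ctnnb1 Het, LacZ-positive and LacZ-negative cells, so the ratio varied less than either level. Col8a2, a chain of the short-chain collagen VIII, reached 113 FPKM in Ctnnb1 cKO cells where its partner Col8a1 had 0.880. For collagen V, Col5a2 exceeded Col5a1 by 15.7 and 9.57 times in Ctnnb1 cKO and Ctnnb1 Het cells, but was 0.666 and 0.521 times Col5a1 in LacZ-positive and LacZ-negative cells. For collagen I, the main collagen of dermal fibres, Col1a1 was 0.825 and 0.345 times Col1a2 in Ctnnb1 cKO and Ctnnb1 Het cells, and 2.64 and 3.01 times in LacZ-positive and LacZ-negative cells. Col3a1, which dermal fibroblasts make beside collagen I, was at most 0.131 FPKM. Col12a1 and Col16a1, collagens that attach to other fibrils, were between 24.3 and 39.9 FPKM and between 20.7 and 47.6 FPKM. Col14a1, Col20a1 and Col23a1 reached at most 1.76, 2.95 and 1.41 FPKM, and each of the 21 collagen genes under 1 FPKM at most 0.720.

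**Figure D2:**
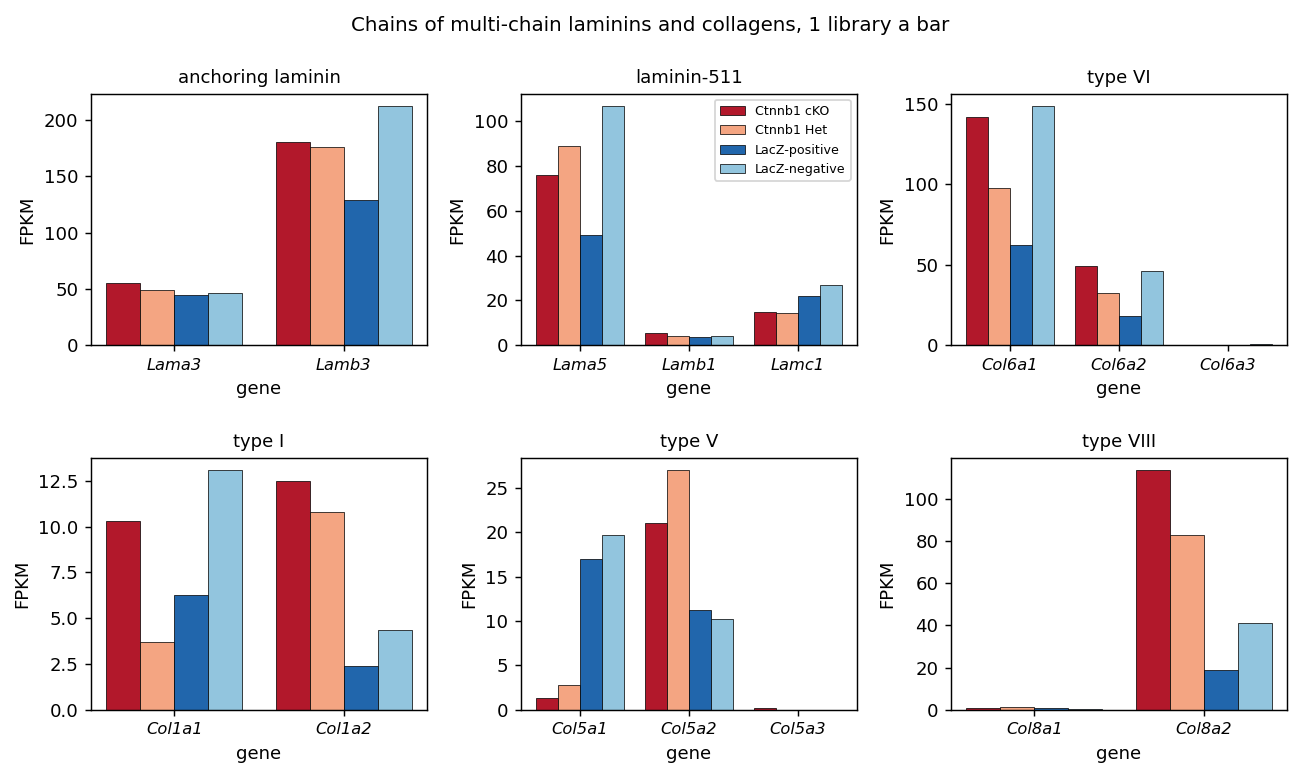
FPKM of chains of 6 assemblies, with 1 bar for each library and the vertical axis starting at 0. Col6a3 and Col8a1 stay near 0 beside high partners, and the order of Col5a1 and Col5a2 is opposite in the Ctnnb1 pair and in the LacZ pair.

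The first comparison sets stem cells with 2 floxed copies of Ctnnb1 against those with 1. Most integrin, laminin and collagen genes were at similar levels in the Ctnnb1 cKO and Ctnnb1 Het libraries. Itgb6, whose protein with αv binds and activates latent TGF-β, was lower in Ctnnb1 cKO cells, and Col1a1 and Col16a1 were higher. The differences are log2 of (FPKM + 1) in Ctnnb1 cKO over Ctnnb1 Het, for genes that reached 1 FPKM in at least 1 of the pair, and 2-fold means a log2 difference of 1 or more in size. Of 43 members so measured, 2 were higher by 2-fold or more, where 1.8% of all 13014 genes were, and 1 was lower, where 2.29% were; relative to the median of genes with at least 5 FPKM in each library, here called the centring median (0.068), these counts were 1 and 1. In either direction the members' share was 6.98%, beside 4.09% of all genes. The members' median was 0.058 and that of all genes 0.056. Over the 28 members that reached 5 FPKM in both libraries the median was 0.18, beside 0.068 for all genes so kept. At 27 higher and 16 lower, 62.8% of the members and 60.9% of all genes were higher in Ctnnb1 cKO cells.

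Itgb6 (mm9 chromosome 2, 60436348 to 60560700, alone in its interval) stood at 4.20 FPKM in Ctnnb1 cKO cells and 13.4 in Ctnnb1 Het cells, a log2 difference of -1.47. In the second table it stood at 63.8 FPKM in LacZ-positive, against 73.1 in LacZ-negative cells, a log2 difference of -0.19. Both Ctnnb1 libraries therefore lay well under both LacZ libraries, and the libraries of the first pair were also apart from each other. The FPKM of Itgav was 15.1 times that of Itgb6 in Ctnnb1 cKO and 3.96 times in Ctnnb1 Het cells, against 0.679 and 1.01 times in LacZ-positive and LacZ-negative cells. Other integrin chains differed less: the largest positive difference was 0.34, for Itgb4 and Itga5, and apart from Itgb6 the most negative was -0.59, for Itga10 at 0.790 against 1.70 FPKM.

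Col1a1 (mm9 chromosome 11, 94797537 to 94814356) stood at 10.3 FPKM in Ctnnb1 cKO and 3.72 in Ctnnb1 Het cells, a log2 difference of 1.26. Its partner chain Col1a2 did not share this difference, at 12.5 against 10.8 FPKM and 0.19 on the log2 scale. The fibroblast markers summed to 3.87 FPKM in Ctnnb1 cKO and 7.09 in Ctnnb1 Het cells. Most of that sum was Vim (1.05 and 3.05) and Thy1 (2.14 and 3.61). Of those under 1 FPKM, Dcn (0.102 and 0.0445), Fap (0.322 and 0.150), Lum and Dpt were higher in Ctnnb1 cKO cells. Pdgfra (0.187 and 0.204), Pdgfrb (0 and 0.0107) and Fbn1 (0.0143 and 0.0157) were lower there, and Twist2 is listed at 0 in both libraries. Col3a1 was at 0.0338 and 0.00800 FPKM. The part of fibroblasts in the Col1a1 difference was not tested. The interval of Col1a1 is shared with the predicted gene Gm17329, whose part in the value was not tested. Col16a1 (mm9 chromosome 4, 129725083 to 129776527, alone in its interval) stood at 43.7 FPKM in Ctnnb1 cKO and 20.7 in Ctnnb1 Het cells, a log2 difference of 1.04. This lies so close to the line that relative to the centring median it was 0.97. Col6a1 (0.54), Col6a2 (0.60), Col8a2 (0.45) and Col7a1 (0.41) were the next higher collagens. Col5a1 had the most negative difference of the collagens, at 1.34 FPKM in Ctnnb1 cKO and 2.82 in Ctnnb1 Het cells, a log2 difference of -0.70. Laminins stayed between -0.22 (Lama5) and 0.35 (Lamb1), with 5 of 8 higher, beside 60.9% of all genes. The count was 3 of 8 relative to the centring median, where 6192 of all 13014 genes were higher.

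The second comparison sets bulge cells sorted as positive for the Axin2 reporter against those sorted as negative, in which Axin2 was still at 9.10 FPKM. Type VI collagen genes, Col8a2 and Lama5 were lower in LacZ-positive cells, and no measured member was higher by 2-fold or more. Of 41 members at 1 FPKM or more in either library, 4 were lower by 2-fold or more, which is 9.76% beside 2.6% of all 13283 genes. None was higher, beside 4.67% of all genes, and in either direction 7.27% of all genes were past the line. The members' median log2 difference was -0.41, and that of all genes -0.13; 30 of 41 members (73.2%) and 63.4% of all genes were lower. The centring median of this pair was -0.17, and relative to it the members' median was -0.24, with 25 members lower and 16 higher. For all 13283 genes the median so centred was 0.036, with 6089 lower and 7194 higher. Relative to the centring median, 2 members were lower by 2-fold or more, as were 224 of all genes, while 804 of all genes and no member were higher by that much. Over the 30 members that reached 5 FPKM in both libraries the median was -0.42. In the plot of members and all genes the members' curve lies to the left over most of its length in this pair. In the Ctnnb1 pair the medians nearly coincide, but the members spread wider. Their quartiles there were -0.22 and 0.24, beside -0.093 and 0.19 for all genes.

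**Figure D3:**
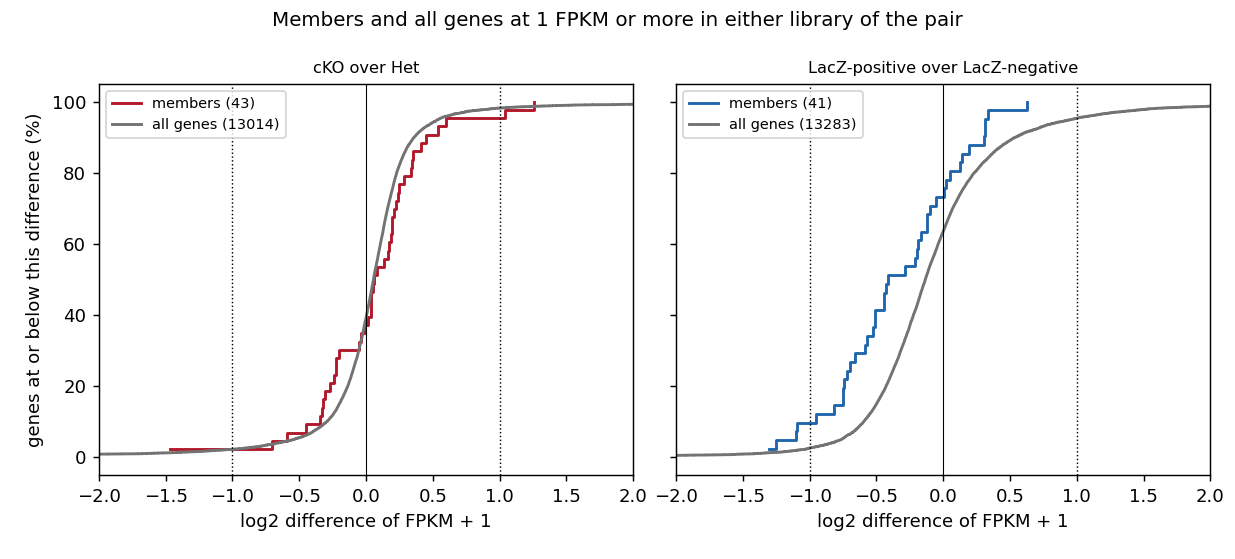
Share of genes (%) at or below each log2 difference of FPKM + 1, for the members and for all genes that reached 1 FPKM in the pair, in Ctnnb1 cKO over Het (left) and LacZ-positive over LacZ-negative (right). The medians are 0.058 and 0.056 on the left and -0.41 and -0.13 on the right, and the dotted lines mark 2-fold.

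Col6a1 (mm9 chromosome 10, 76171536 to 76188913) stood at 62.0 FPKM in LacZ-positive, against 149 in LacZ-negative cells, a log2 difference of -1.25. Col6a2 (mm9 chromosome 10, 76058506 to 76086375) stood at 18.1 and 46.2 FPKM, a log2 difference of -1.31. These neighbouring genes, each with a promoter window printed above, were each alone in their table interval. Their differences stayed past 2-fold relative to the centring median. Col8a2 (mm9 chromosome 4, 125964036 to 125991574) stood at 18.8 FPKM in LacZ-positive, against 41.2 in LacZ-negative cells, a log2 difference of -1.09, and -0.92 relative to the centring median. The interval of Col8a2 is shared with another symbol, AL606976.2, so its reads may be mixed. Lama5 (mm9 chromosome 2, 179911077 to 179960564) stood at 49.4 and 107 FPKM, a log2 difference of -1.10, and -0.93 relative to the centring median. Against Lama3, whose levels were 44.4 and 45.9 FPKM, Lama5 was 1.11 times as high in LacZ-positive and 2.33 times as high in LacZ-negative cells. The corresponding ratios in Ctnnb1 cKO and Ctnnb1 Het cells were 1.38 and 1.82.

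All 8 measured laminins were lower in LacZ-positive cells, between -0.050 (Lama3) and -1.10 (Lama5), beside 63.4% of all genes. Relative to the centring median, however, 5 were lower and 3 higher, where 6089 of all 13283 genes were lower and 7194 higher. Lamb3 stood at 129 FPKM in LacZ-positive, against 213 in LacZ-negative cells (log2 difference -0.72). Of 21 collagens 15 were lower, beside the same 63.4% of all genes. The count was 14 relative to the centring median, where 6089 of all 13283 genes were lower. Col1a1 stood just inside the line at 6.29 FPKM in LacZ-positive, against 13.1 in LacZ-negative cells (-0.95), and Col1a2 stood at 2.38 and 4.34 (-0.66). Col17a1 differed by -0.51, Col18a1 by -0.57, Col12a1 by -0.69 and Col7a1 by -0.44. On the higher side Col23a1, a transmembrane collagen, stood at 1.41 FPKM in LacZ-positive, against 0.555 in LacZ-negative cells (0.63), and Col16a1 at 47.6 and 38.2 (0.31). Integrins were divided, 5 higher and 7 lower, or 6 and 6 relative to the centring median, with Itga2 (0.34) and Itgb8 (0.31) at the top and Itgav (-0.75), Itga5 (-0.74) and Itgb4 (-0.59) at the bottom.

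Markers of other cell states also differed between the LacZ libraries. Upper follicle and epidermal markers, 5 of 5 of them at 1 FPKM or more, summed to 2337 FPKM in LacZ-positive, against 946 in LacZ-negative cells. Of the 10 bulge and basal markers, 4 were higher and 6 lower in LacZ-positive cells, beside 63.4% of all genes lower. Krt15, listed at 0 in LacZ-negative cells, is counted among the higher ones. Cd34 stood at 223 FPKM in LacZ-positive, against 516 in LacZ-negative cells, and Krt14 at 2144 and 1714. In the Ctnnb1 pair the same 5 markers summed to 655 FPKM in Ctnnb1 cKO and 629 in Ctnnb1 Het cells. The part of these markers in the matrix gene differences was not tested. The higher fibroblast sum in LacZ-positive cells was mostly Vim (6.12 FPKM, against 1.82 in LacZ-negative cells), Thy1 (4.99 and 2.78) and Dcn (2.16 and 0.423), and the part of fibroblasts was not tested either.

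**Figure D4:**
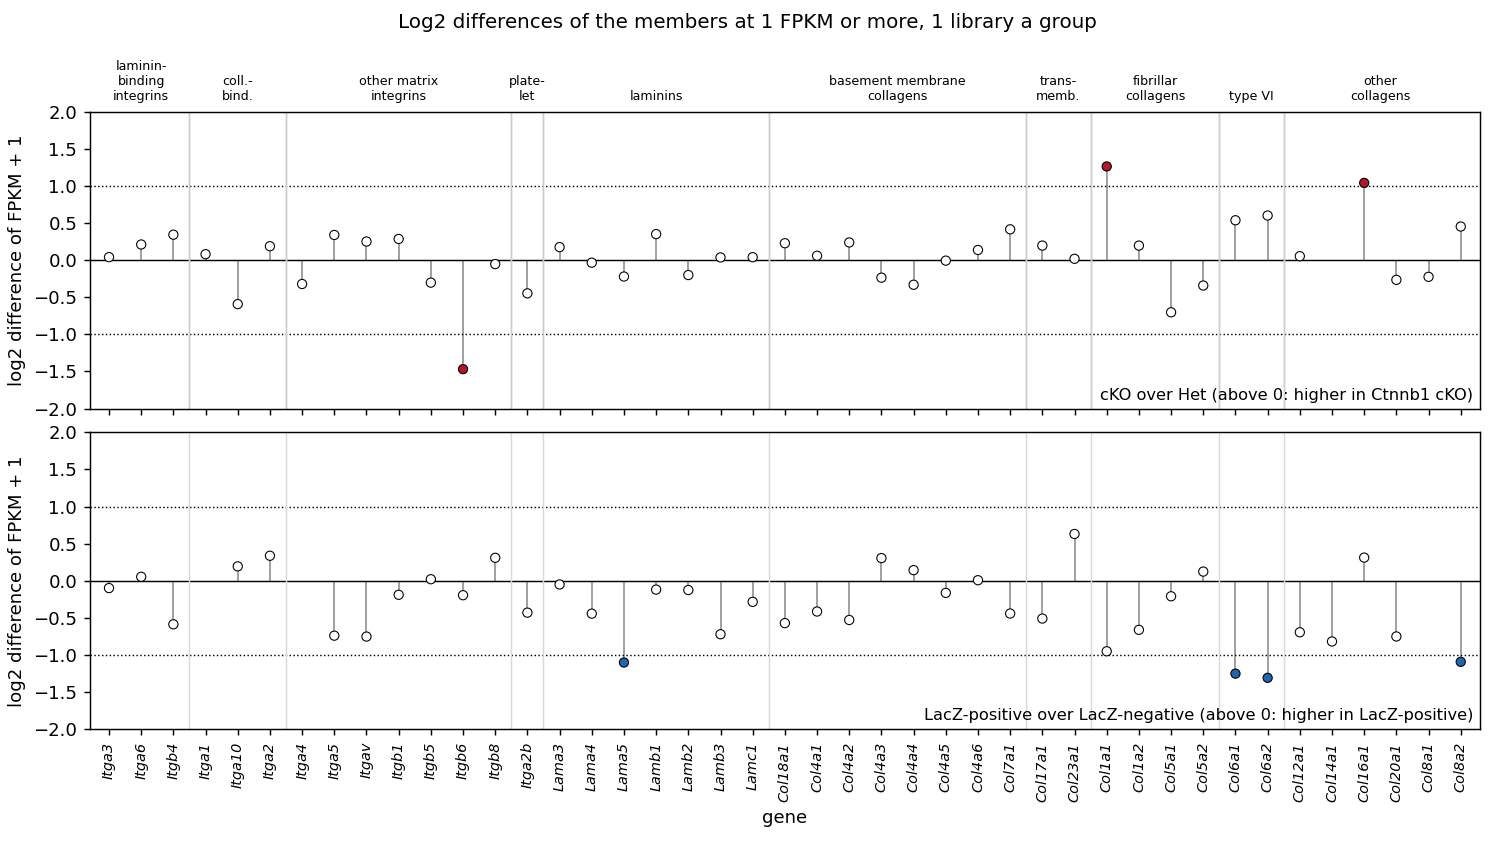
Log2 differences of FPKM + 1 for 43 members at 1 FPKM or more in any library, grouped by role, in Ctnnb1 cKO over Het (top) and LacZ-positive over LacZ-negative (bottom). Filled points are past the dotted 2-fold lines: Itgb6, Col1a1 and Col16a1 at the top, and Lama5, Col6a1, Col6a2 and Col8a2 at the bottom; a gene under 1 FPKM in both libraries of a pair has no point there.

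Set side by side, the pairs share no library. Of 40 members measured in both, 21 (52.5%) were higher in Ctnnb1 cKO and lower in LacZ-positive cells, and 42.3% of all 12499 genes were. Another 6 members were lower in Ctnnb1 cKO and higher in LacZ-positive cells, 5 were higher in both and 8 lower in both. These signs are as deposited, where 60.9% of all genes were higher in the first pair and 63.4% lower in the second. Col6a1 differed by 0.54 and -1.25 in the first and second pair, Col6a2 by 0.60 and -1.31, Col8a2 by 0.45 and -1.09 and Col1a1 by 1.26 and -0.95. None of these genes was past 2-fold in both pairs. Lama5 was lower in both, at -0.22 and -1.10, as was Itgb6, at -1.47 and -0.19. Col16a1 was higher in both, at 1.04 and 0.31.

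Partner genes of the same structures were read from 3 lists. Of 20 hemidesmosome and basement membrane partners, 16 were measured in each pair. In the Ctnnb1 pair 10 were higher and 6 lower, beside 60.9% of all genes higher. They were evenly split relative to the centring median, 8 and 8, where 6192 of all 13014 genes were higher. Past the 2-fold line stood 1 on each side, beside 1.8% of all genes on the higher and 2.29% on the lower side: Ntn4, a laminin-related netrin, at 13.4 FPKM in Ctnnb1 cKO and 4.54 in Ctnnb1 Het cells, and Fbln1, a fibulin of basement membranes, at 22.0 and 59.8 FPKM. Npnt, the gene of nephronectin, a ligand of integrin α8 in bulge basement membrane, followed at 51.2 and 87.3 FPKM (-0.76). In the LacZ pair 4 were higher and 12 lower, beside 63.4% of all genes lower. The split was 6 and 10 relative to the centring median, where 6089 of all 13283 genes were lower. As deposited, only Npnt was lower by 2-fold or more, at 142 FPKM in LacZ-positive, against 313 in LacZ-negative cells (-1.14), beside 2.6% of all genes. None was higher by that much, beside 4.67%. Fbln1 (0.97) and Fbln2 (0.81) were the largest differences on the higher side there, and relative to the centring median Fbln1 was past the line and Npnt inside it. The receptor for nephronectin, Itga8, was at most 0.261 FPKM in these libraries.

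Of 23 integrin adaptor and focal adhesion genes, 18 were measured in the Ctnnb1 pair, 14 of them higher and 4 lower, where 60.9% of all genes were higher. The counts were 11 and 7 relative to the centring median, where 6192 of all 13014 genes were higher. Only Tns4, a tensin, differed by 2-fold or more, beside 4.09% of all genes, at 68.3 FPKM in Ctnnb1 cKO and 154 in Ctnnb1 Het cells. The next were Zyx (0.63) and Vcl (-0.54). In the LacZ pair 19 were measured, 4 higher and 15 lower, beside 63.4% of all genes lower. Relative to the centring median 9 were higher and 10 lower, where 6089 of all 13283 genes were lower. None reached 2-fold, beside 7.27% of all genes. Zyx (-0.65), Tns1 (-0.64) and Bcar1 (-0.55) differed most. Tns4 stood at 212 FPKM in LacZ-positive, against 273 in LacZ-negative cells, so its values, like those of Itgb6, were lowest in the Ctnnb1 cKO library when the tables are set side by side.

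Collagen making and processing genes, 22 in all, had 15 measured in each pair. In the Ctnnb1 pair 14 were higher and 1 lower, beside 60.9% of all genes higher. The counts were 12 and 3 relative to the centring median, where 6192 of all 13014 genes were higher. By 2-fold or more 2 were higher, beside 1.8% of all genes, and none was lower, beside 2.29%. Pcolce2, an enhancer of procollagen C-proteinase, stood at 55.5 FPKM in Ctnnb1 cKO and 14.0 in Ctnnb1 Het cells (1.91). Loxl1, a lysyl oxidase that crosslinks matrix proteins, stood at 4.48 and 0.699 FPKM (1.69), and Adamts2, a procollagen N-proteinase, at 1.79 and 0.692 (0.72). The list's median was 0.28, beside 0.056 for all genes, and relative to the centring median it was 0.21, beside -0.012. In the LacZ pair its median was -0.39, with 5 higher and 10 lower, beside a median of -0.13 and 63.4% lower for all genes. Relative to the centring median the list's median was -0.22, with 6 higher and 9 lower. For all 13283 genes the median so centred was 0.036, with 6089 lower. As deposited, 1 gene of the list stood past the 2-fold line on each side, beside 2.6% of all genes lower and 4.67% higher. Pcolce2 was lower at 4.61 FPKM in LacZ-positive, against 19.6 in LacZ-negative cells (-1.87), and Adamts14 higher at 3.90 and 1.04 (1.27). P4ha2, a collagen prolyl hydroxylase subunit, stood at 9.06 and 18.6 (-0.96). Pcolce2, Adamts2 and Adamts14 share their intervals with other symbols, which may add reads to them. The same holds for Ntn4, Npnt, Zyx and Vcl of the other lists.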

How the data were processed

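Expression was read from RNA sequencing of 4 populations of sorted mouse hair follicle stem cells, 1 library a group, grouped by the sample labels. The 4 chromatin samples were left out. The authors deposited FPKM per gene, per the file headers, in 2 tables of 32091 rows, each with 1 pair of libraries. Tools in the submitters' processing notes are TopHat2 2.0.4, TopHat and Cufflinks 2.1.1, and builds are mm9 and GRCm38; their roles and settings: not given in the sources used here. Coordinates were taken as mm9, since on chromosome 7 they reach 152509964, past the last gene end of GRCm38 (145324059). FPKM divides by a library total, and the mitochondrial transfer RNA mt-Ts1 held 20.6% to 28.1% of the summed FPKM. A column of log2 fold changes (cKO over Het), deposited by the authors in the first table, served as a check. For 71 of 73 members above 0 in both libraries it matches the log2 ratio of their FPKM within 0.01, and for Col7a1 and Lama3 it holds 0.

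Rows of 1 symbol were summed, after 25 symbols turned into dates were restored by Ensembl identifier. Members were matched on the whole symbol, so Col4a3bp was left out. Differences are log2 ratios of FPKM + 1 within a pair, taken where at least 1 library of the pair reached 1 FPKM; this scale understates differences of low genes. No test was run, and depth is unknown. Named with values were members at 10 FPKM or more in any library or past 2-fold, and of each partner list the 3 largest differences in each pair; further levels were added after the values were seen. One member is counted but not reported here. Of the partner lists, Tns2 was not matched. Of the 44 members at 1 FPKM or more, 18 share a table interval with another symbol, so overlapping genes can share reads. The steps were tested on simulated pairs, with Python 3.11.15 and pandas 2.3.3. Members and lists were chosen with earlier results of these data known. Other settings tried were pseudocounts of 0.1 and 5, no minimum and a minimum of 5 FPKM, centring, scaling by the upper quartile, only the highest row of a symbol, no genes listed at 0, and members alone in their interval.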

Additional observations from a re-analysis of the deposited data

How the results depend on the processing

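No paired analysis was possible because each group has 1 library, and for the same reason none could be left out. Using the highest row per symbol or leaving out genes listed at 0 changed no count or median. In the Ctnnb1 pair the members' median of 0.058 turned to -0.010 when centred on the median of genes at 5 FPKM or more. By construction this centring subtracts 0.068. With a minimum of 5 FPKM the members' median was 0.19. Its sign and size thus depended on the setting, so no direction is read from it. The members higher by 2-fold or more, 2 as deposited, were 1 when centred, 1 with upper-quartile scaling, 1 among members alone in their interval, where Col1a1 is not counted, and 0 with a pseudocount of 5. The 1 lower member became 3 with a pseudocount of 0.1 and 0 with a pseudocount of 5, where Itgb6 came just short of the line. In the LacZ pair the median of -0.41 was -0.24 when centred, -0.20 with upper-quartile scaling, which also lets in 1 further member (-0.26 over the same 41), -0.19 among members alone in their interval, -0.24 with a pseudocount of 5 and -0.0011 with no minimum, where all 82 members count, those under 1 FPKM included. The 4 lower members became 2 when centred or with upper-quartile scaling (Col6a1 and Col6a2), 7 with a pseudocount of 0.1 and 3 with a pseudocount of 5 or among members alone in their interval. Col8a2 was not among these 3 in either setting. The 0 higher members became 1 with a pseudocount of 0.1. The cause of the other shifts was not tested. Exact levels under about 1 FPKM cannot be weighed, since depth is unknown.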

Other observations

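Names that resemble the members but were left out by the rule were read as well. Itgb1bp1, an integrin β1 tail-binding protein also known as ICAP1, stood at 22.7 FPKM in Ctnnb1 cKO and 19.9 in Ctnnb1 Het cells, and at 25.3 in LacZ-positive, against 31.8 in LacZ-negative cells. Col4a3bp, which encodes a ceramide transfer protein and no collagen, stood at 20.8 and 17.6 FPKM in the first pair and at 10.8 and 11.4 in the second. Itgb3bp, a kinetochore protein by its better known role, lay between 4.56 and 5.17 FPKM in all 4 libraries. None of them differed by 2-fold in either pair.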
